A study of Homo sapiens with 20 samples.

Results

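The accessible regions described here come from the 2 Omni-ATAC-seq libraries labelled CL1-5, 1 Mock and 1 DAC. They are 2 of the 20 samples of the series and 2 of its 8 Omni-ATAC-seq libraries, and their peak lists hold 183294 of the 591387 peaks of all lists. CL1-5 and PC9 are human lung adenocarcinoma lines. Cells of the Mock library received PBS, whereas those of the DAC library were exposed to decitabine (DAC) at 100 nM for 72 hours and then kept without drug for 3 days. Both were grown in the same serum-containing medium, and A549, H1299 and the libraries labelled PC9 were treated in the same way. With 1 library per treatment there is no replicate, so the values below are counts and medians of whole lists, and no difference between Mock and DAC was tested. Members were all peaks of both lists. A peak was called shared when at least 1 bp of it overlapped a peak of the other list, and otherwise Mock only or DAC only. The label of these libraries is in doubt. Their peaks and files carry the name PC9, and in Mock a promoter peak was listed for 87.6% of 420 genes with mRNA in PC9 but not CL1-5, against 62.8% of 349 genes with the reverse pattern. They are therefore called the libraries labelled CL1-5, and every relation to mRNA-seq is given for the CL1-5 and for the PC9 expression values.

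In ATAC-seq a transposase cuts DNA that is not wrapped in nucleosomes or covered by other proteins, and regions with many cuts are called as peaks. Peaks at transcription start sites (TSS) often lie in CpG islands, which are unmethylated in most cells, whereas distal peaks mark enhancers and sites bound by factors such as AP-1 or CTCF. DAC is a cytosine analog that traps DNA methyltransferases on newly made DNA, so that CpG methylation is diluted as cells divide. Genes silenced by promoter methylation in somatic cells, above all the cancer-testis genes of the X chromosome, are known to be transcribed again after such treatment, and interferon-stimulated genes can follow when transcribed repeats are sensed as viral RNA. In a bulk library, more cells with an open site and a more open site in each cell cannot be told apart, and likewise for RNA.

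The sequences below are examples of sites that appeared in 1 list only. They are GRCh37 reference sequence on the plus strand, from the middle of each peak and outside annotated exons. The first set lies at DAC-only promoter peaks of genes without a promoter peak in Mock, with each CpG in capitals. MAGEB1 and MAGEB2, cancer-testis genes of the X chromosome, are shown from their list. MAGEA1 of the same list, with a shorter exon-free stretch, is not shown. TUBA3E (a testis alpha-tubulin), TEX11 (a meiosis gene) and H19 (an imprinted non-coding RNA) were chosen after their values were seen. The stretches are chrX:30265150-30265262 for MAGEB1, chrX:30233509-30233679 for MAGEB2, chr2:130956013-130956169 for TUBA3E, chrX:70128152-70128351 for TEX11 and chr11:2019482-2019681 for H19.
MAGEB1: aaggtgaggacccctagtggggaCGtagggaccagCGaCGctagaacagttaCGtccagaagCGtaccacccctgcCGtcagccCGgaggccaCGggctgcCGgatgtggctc
MAGEB2: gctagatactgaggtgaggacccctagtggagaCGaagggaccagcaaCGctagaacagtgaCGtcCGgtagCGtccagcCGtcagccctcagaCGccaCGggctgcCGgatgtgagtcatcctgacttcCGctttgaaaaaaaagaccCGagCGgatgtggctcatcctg
TUBA3E: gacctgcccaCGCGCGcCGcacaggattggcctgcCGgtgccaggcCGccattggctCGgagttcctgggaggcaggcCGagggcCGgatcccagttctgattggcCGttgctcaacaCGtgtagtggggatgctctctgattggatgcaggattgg
TEX11: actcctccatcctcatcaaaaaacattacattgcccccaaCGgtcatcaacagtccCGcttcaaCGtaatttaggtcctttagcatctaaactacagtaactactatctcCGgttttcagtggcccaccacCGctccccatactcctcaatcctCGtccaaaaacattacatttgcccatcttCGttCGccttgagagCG
H19: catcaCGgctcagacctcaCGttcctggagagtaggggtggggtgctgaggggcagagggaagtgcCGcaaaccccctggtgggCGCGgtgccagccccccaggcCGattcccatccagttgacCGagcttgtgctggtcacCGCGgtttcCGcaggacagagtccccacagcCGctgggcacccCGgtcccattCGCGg

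The stretch holds 9 CpG in MAGEB1 (of 113 bp), 12 in MAGEB2 (171 bp), 11 in TUBA3E (157 bp), 9 in TEX11 (200 bp) and 14 in H19 (200 bp). Stretches at 2 other gained genes, not shown, hold fewer, with 0 CpG in MAGEA1 (75 bp) and 2 in IFIT1 (200 bp). Windows of 300 bp at all DAC-only promoter peaks had a median of 6 CpG, so the sequences shown do not stand for the whole class. MAGEB1 and MAGEB2 are paralogs and share an identical run of 20 bp. For contrast, 2 of the 5 strongest Mock-only promoter peaks are shown, also with CpG in capitals. They are chr18:76739625-76739817 at SALL3, a zinc-finger transcription factor, and chr20:21496068-21496267 at NKX2-2, a homeodomain transcription factor.
SALL3: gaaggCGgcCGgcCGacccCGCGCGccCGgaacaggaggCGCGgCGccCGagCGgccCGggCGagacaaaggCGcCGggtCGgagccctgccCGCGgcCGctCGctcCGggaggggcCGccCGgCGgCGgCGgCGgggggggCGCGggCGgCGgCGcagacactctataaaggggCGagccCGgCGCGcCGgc
NKX2-2: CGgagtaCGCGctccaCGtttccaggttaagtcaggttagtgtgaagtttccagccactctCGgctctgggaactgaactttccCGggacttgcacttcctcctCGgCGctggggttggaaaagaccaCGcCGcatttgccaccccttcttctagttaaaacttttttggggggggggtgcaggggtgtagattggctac

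SALL3 holds 38 CpG in 193 bp and NKX2-2 10 in 200 bp, so CpG-rich DNA was present among the peaks of both lists. A last set shows distal peaks, over 3000 bp from a TSS, with the AP-1 letters TGANTCA (either strand) in capitals. They are among the strongest such peaks of each list and were chosen after their values were seen. Those at KLHL1 (chr13:70777923-70778082) and RPRD1B (chr20:36672422-36672581) were DAC only, and those at PDE4D (chr5:59492320-59492479) and ZNF385B (chr2:180319754-180319913) were Mock only, with each peak named by the gene of the closest TSS.
KLHL1: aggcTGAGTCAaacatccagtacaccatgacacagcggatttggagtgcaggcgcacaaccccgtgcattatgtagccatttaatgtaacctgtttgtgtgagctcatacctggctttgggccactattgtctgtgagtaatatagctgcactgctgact
RPRD1B: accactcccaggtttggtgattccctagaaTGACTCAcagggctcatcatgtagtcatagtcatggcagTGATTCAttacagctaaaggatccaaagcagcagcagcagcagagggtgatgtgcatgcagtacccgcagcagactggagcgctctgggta
PDE4D: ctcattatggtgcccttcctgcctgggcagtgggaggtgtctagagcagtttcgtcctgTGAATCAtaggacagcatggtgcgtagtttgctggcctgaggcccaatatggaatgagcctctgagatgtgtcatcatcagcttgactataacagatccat
ZNF385B: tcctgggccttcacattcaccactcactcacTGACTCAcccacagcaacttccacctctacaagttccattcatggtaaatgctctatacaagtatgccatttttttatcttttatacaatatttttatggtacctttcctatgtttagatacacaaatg

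The fold enrichment over local background, as the peak caller gave it, was 10.3 at KLHL1 and 8.73 at RPRD1B in DAC, and 12.3 at PDE4D and 10.9 at ZNF385B in Mock. RPRD1B, PDE4D and ZNF385B peaks were annotated as intronic and the KLHL1 peak as distal intergenic. A fold enrichment is relative to the background of its own library, so below it is compared between libraries mostly by its rank.

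The label was examined first, with genes expressed at an FPKM of at least 1 in one line and under 0.1 in the other. A peak with its closest TSS within 3000 bp is called a promoter peak of that gene. Such a peak was listed in the Mock library labelled CL1-5 for 368 (87.6%) of the 420 genes expressed in PC9 only, whereas the Mock library labelled PC9 had it for 224 (53.3%). For the 349 genes expressed in CL1-5 only the numbers were 219 (62.8%) with the label CL1-5 and 286 (81.9%) with the label PC9. In A549 and H1299 the genes expressed in PC9 only had the lower share, at 61.2% against 75.4% and 42.9% against 69.6%. Of the 8 genes of highest mRNA in PC9 Mock and none in CL1-5, KRT13, LCN2, KLK5 and S100A14, at FPKM of 264, 232, 193 and 132 in PC9, had a promoter peak with the label CL1-5 and none with the label PC9. CEACAM6, a surface adhesion glycoprotein at an FPKM of 409 in PC9 and 0 in CL1-5, went the other way, with a fold enrichment of 5.51 under the label PC9 and no promoter peak under the label CL1-5. Of the 8 genes with the reverse pattern, SRPX, at an FPKM of 33.0 in CL1-5 and 0 in PC9, had a promoter peak only under the label PC9, and CT47B1, at 82.1 and 0.0725, only under the label CL1-5. All 15 epithelial markers had a promoter peak in Mock, among them EPCAM with a fold enrichment of 7.19 and GRHL2 with 6.47. EPCAM mRNA was at an FPKM of 0.132 in CL1-5 and 235 in PC9, and that of GRHL2, an epithelial transcription factor, at 0 and 20.5. All 12 mesenchymal markers had one as well, VIM with a fold enrichment of 4.18. None of these 12 lacked one under the label PC9, so they do not separate the 2 labels. Of the 15 epithelial markers, 4 had no promoter peak in Mock under the label PC9, 2 in A549 and 9 in H1299. VIM mRNA was at an FPKM of 353 in CL1-5 and 4.77 in PC9. Among 6 leukocyte markers PTPRC and CD3E had no promoter peak in either library, and none of the 6 reached an FPKM of 1 in CL1-5 or PC9. Of the lung lineage markers, 8 of 9 had a promoter peak in Mock, whereas the mRNA of NKX2-1, the lung lineage regulator, was at an FPKM of 0.117 in CL1-5 and 0.182 in PC9.

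**Figure D1:**
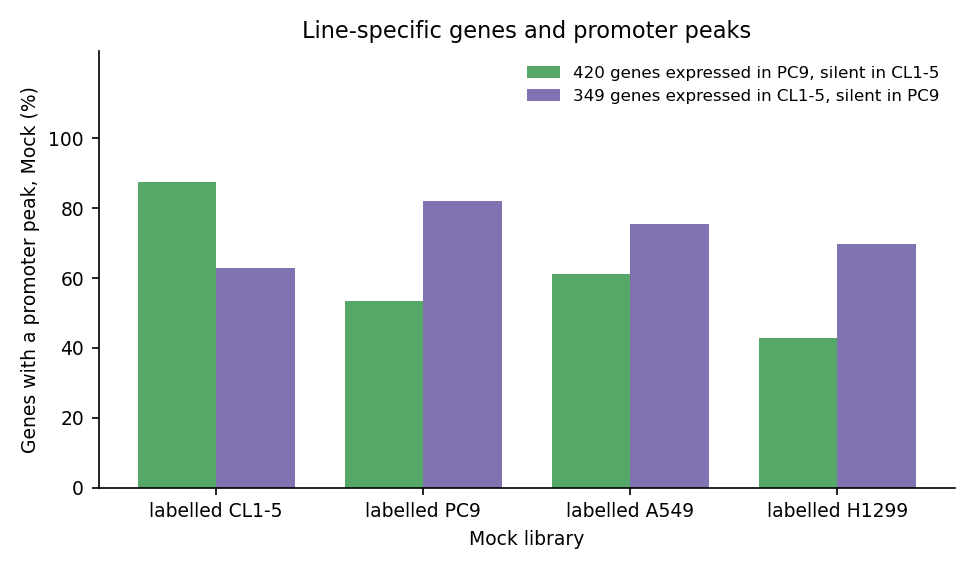
Share of genes (%) with a promoter peak in each Mock library, for 420 genes with mRNA in PC9 only (green) and 349 genes with mRNA in CL1-5 only (purple). Only in the library labelled CL1-5 is the green bar the higher one, at 87.6% against 62.8%.

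The lists held 85710 peaks over 51.9 Mb in Mock and 97584 peaks over 62.2 Mb after DAC. The median peak was 491 bp wide in Mock and 513 bp after DAC, and the median fold enrichment was 3.64 and 3.49. The number of reads behind each list is unknown here. As a stand-in for depth, peaks under 400 bp with a fold enrichment of 3 to 3.2 had a median −log10 p of 3.66 in Mock and 3.59 after DAC, since more reads give the same enrichment a smaller p. The part of depth in the differences below was not tested.

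Most peaks were found in both lists, and the rest were narrower, weaker and farther from a TSS. In Mock 60256 peaks (70.3%) were shared and 25454 (29.7%) were Mock only, and after DAC 59868 (61.4%) were shared and 37716 (38.6%) were DAC only. DAC-only peaks had a median width of 364 bp against 641 bp for the shared DAC peaks, and Mock-only peaks 348 bp against 570 bp. The median fold enrichment was 3.12 in DAC-only and 3.97 in shared DAC peaks, and 3.0 in Mock-only and 4.26 in shared Mock peaks. A q-value under 0.01 was reached by 46.0% of DAC-only and 33.3% of Mock-only peaks, against 86.1% and 84.1% of the shared ones. DAC-only peaks covered 16.9 Mb, with 10% of them at or under 221 bp and 10% at or over 785 bp, and Mock-only peaks covered 10.7 Mb. The strongest DAC-only peak had a fold enrichment of 12.5 and the strongest Mock-only peak 16.5, against 23.9 and 30.8 among shared peaks.

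**Figure D2:**
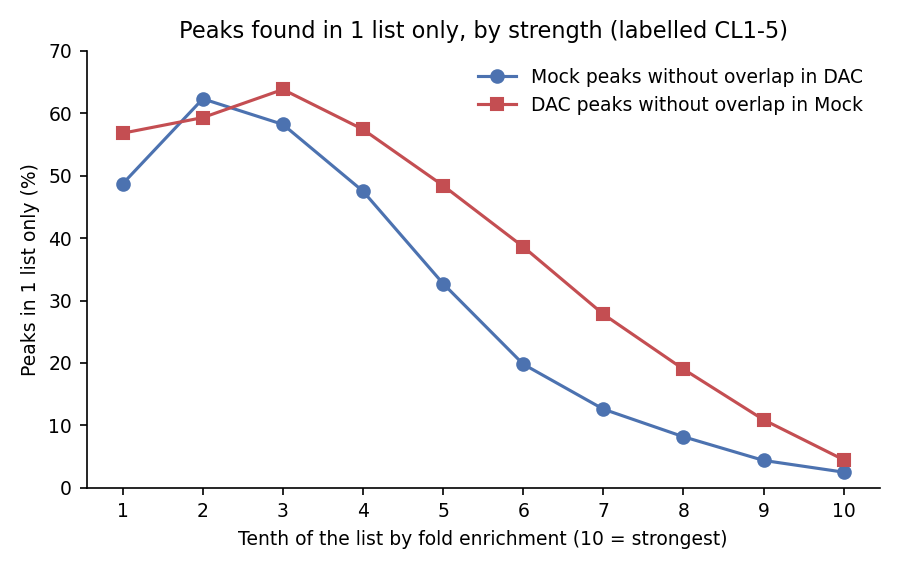
Share of peaks (%) found in 1 list only, in 10 equal bins of the list ranked by fold enrichment, for the Mock list (circles) and the DAC list (squares) of the libraries labelled CL1-5. The shares peak at 62.3% and 63.8% in weak bins and end at 2.51% and 4.49% in the strongest bin.

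When each list was divided into 10 equal bins by fold enrichment, the share of Mock-only peaks was 62.3% in bin 2 and 2.51% (215 peaks) in bin 10, the strongest. The share of DAC-only peaks was 63.8% in bin 3 and 4.49% (438 peaks) in bin 10. From bin 3 to bin 10 the DAC share was the higher one in each, for example 27.8% against 12.6% in bin 7. Of the DAC-only peaks, 73.9% lay at or below the median fold enrichment of their list, and of the Mock-only peaks 84.0%. Cutting the DAC list to the 85710 peaks of smallest p left 28665 DAC-only peaks (33.4%) beside 28241 Mock-only peaks (32.9%). Lists of equal length that overlap almost one to one give nearly equal numbers on both sides by construction, so nothing is read from these. Cut by fold enrichment, the numbers were 30877 (36.0%) and 30487 (35.6%). The median width of DAC-only peaks stayed at 362 and 360 bp in these lists.

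Among the 58728 pairs of peaks that overlapped one to one, 57.1% were wider after DAC, with a median width of 570 bp in Mock and 636 bp after DAC. The fold enrichment as listed, which depends on the background of each library, was higher after DAC in 34.0%. In the 17007 pairs at promoters this share was 20.3% and in the 41721 distal pairs 39.6%. Ranked over all pairs, promoter peaks moved by a median of -2.45 percentiles and distal peaks by 0.862. A DAC peak covered several Mock peaks in 642 cases and a Mock peak covered several DAC peaks in 255.

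Peaks in 1 list only lay farther from a TSS than shared peaks. DAC-only peaks lay closer to a TSS than Mock-only peaks, an order that turned with equal numbers of peaks by fold enrichment. The median distance to the closest TSS was 24934 bp for DAC-only and 30060 bp for Mock-only peaks, against 14370 and 14394 bp for the shared ones. With the DAC list reduced by fold enrichment it was 28510 bp for DAC-only and 25069 bp for Mock-only peaks, and reduced by p 25232 and 29400 bp. Of the DAC-only peaks 3861 (10.2%) and of the Mock-only peaks 2571 (10.1%) lay within 3000 bp of a TSS, against 29.3% of the shared peaks in either list. In the list reduced by fold enrichment these shares were 8.46% and 13.8%. A TSS was covered by 1.89% of DAC-only and 1.9% of Mock-only peaks, against 20.8% and 20.7% of shared ones. Introns held 38.7% of DAC-only and 35.2% of Mock-only peaks, against 26.3% and 26.7% of the shared DAC and Mock peaks. Distal intergenic DNA held 41.6% and 45.5%, against 36.0% of the shared peaks in either list. Over 100 kb from any TSS lay 17% of DAC-only and 20.8% of Mock-only peaks. The nearest peak of the other list was a median of 6720 bp away from a DAC-only peak and 6115 bp from a Mock-only peak, and 1.51% and 2.35% lay within 200 bp of one, so few of them lay at the edge of a peak of the other list.

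DAC-only peaks were also found more often in the DAC lists of the other lines than in their Mock lists. Of the DAC-only peaks 15.2% overlapped a peak of A549 Mock and 25.8% one of A549 DAC. The shares were 9.59% and 17.4% for H1299 and 19.8% and 30.8% for the label PC9. Of the Mock-only peaks 14.2% and 19% overlapped a peak of A549 Mock and DAC, 9.85% and 14.7% one of H1299, and 17.6% and 23.7% one under the label PC9. All DAC lists were longer than their Mock lists, and both classes were overlapped more often by DAC lists. DAC-only peaks gained more between Mock and DAC lists than Mock-only peaks in each of the other lines. No peak in any of the 6 other lists matched 48.7% of DAC-only and 55% of Mock-only peaks, against 18.9% and 19.4% of shared ones. In bin 10 these shares were 30.8% of 438 DAC-only and 39.5% of 215 Mock-only peaks, against 12.6% and 10.7% of shared ones.

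Motifs were searched in 300 bp windows at the midpoint of each peak. Among the 14 searched and over all strengths, the letters of AP-1 differed most, in percentage points, between distal DAC-only and Mock-only peaks. TGANTCA, on either strand, was in 17.3% of 33824 distal DAC-only windows and in 12.8% of 22853 distal Mock-only windows, against 24.1% and 25.5% of distal shared windows and 9.32% of 142935 windows tiled over the genome. Weaker peaks held it less often, so the classes were also compared within 3 equal bins of each list ranked by fold enrichment, a division chosen after the data were seen. In the weakest bin the shares were 12.7% in DAC-only, 9.01% in Mock-only and 12.1% (DAC) and 1284 of 9893 (Mock) in shared windows. In the middle bin they were 19.4%, 17.2%, 20.6% and 23.4%, and in the strongest 31.0%, 28.1%, 32.6% and 34.7%. In each bin the Mock-only windows had the lowest AP-1 share. In the strongest bin AP-1 did not differ most. There the RUNX letters TGTGGTT were in 5.95% of DAC-only and 10.4% of Mock-only windows, the opposite direction. The NRF2 letters TGACNNNGC were in 16.1% and 12.9%, and a CTCF motif in 4.06% and 6.64%. In the weakest and middle bins RUNX had 5.50% against 5.27% and 5.93% against 6.41%. Over all strengths a CTCF motif was in 1.4% of distal DAC-only, 1.52% of Mock-only and 2.87% and 3.26% of shared windows of DAC and Mock, against 0.144% of the tiles. The TEAD letters GGAATG were in 6753 of 33824 DAC-only windows, 18.2% of Mock-only and 21.6% and 22.2% of shared windows, against 15.3% of the tiles. The GATA letters AGATAA were in 10.8%, 10.6%, 10.6% and 10.4%, below the 21.2% of the tiles, which have less GC (40.9%) than these windows (51.8% to 53.1%). The remaining letters searched in distal windows were TGTTTAC (FOX, 4.82% of DAC-only and 4.17% of Mock-only windows), TGTGGTT (RUNX, 5.71% and 5.96%), CACGTG (E-box, 4.70% and 5.49%), TGACNNNGC (NRF2, 14.6% and 13.2%) and GGGCGG (SP and KLF, 11.3% and 10.2%). Motifs of IRF factors (2.97% and 2.71%) and of the p53 family (0.665% and 0.713%) were searched as well. TGACGTCA (CRE), an NRF1 motif and CCGGAAG (ETS) were in under 2% of both. TGANTCA can overlap the NRF2 letters, and a match is not a bound site.

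**Figure D3:**
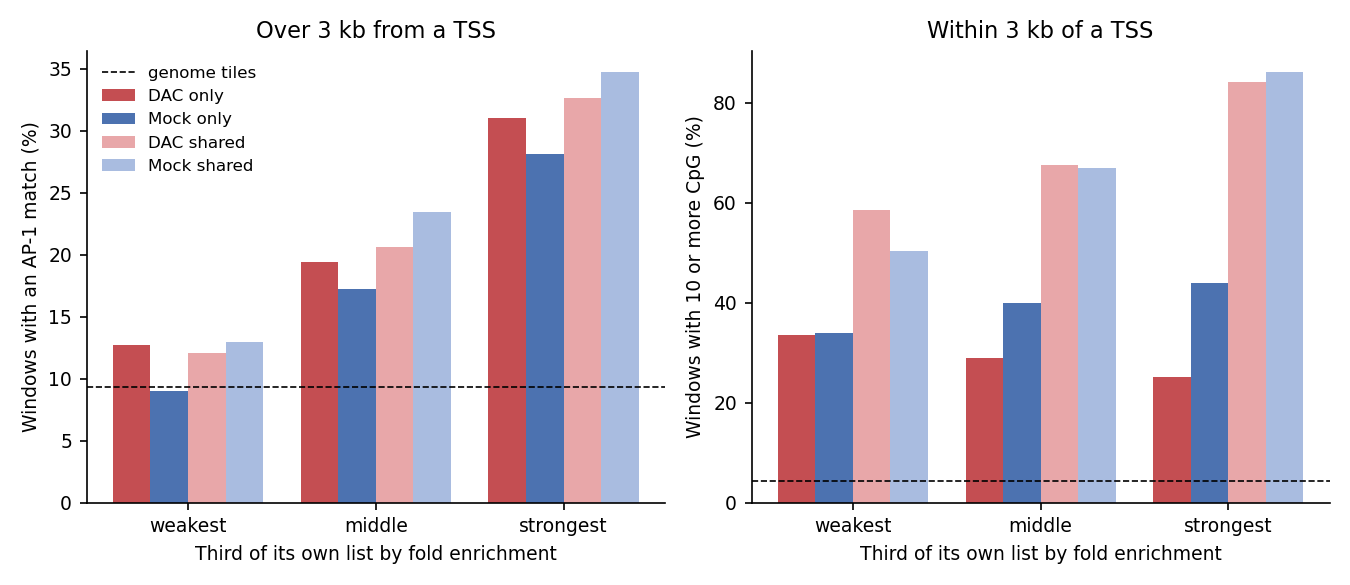
Share of 300 bp windows (%) with an AP-1 match in distal peaks (left) and with 10 or more CpG in promoter peaks (right), by class and by 3 equal bins of each peak's own list ranked by fold enrichment, for the libraries labelled CL1-5. Dashed lines give the genome tiles, 9.32% and 4.37%. Mock-only windows have the lowest AP-1 share in each bin, and windows of peaks in 1 list only have fewer CpG than shared ones.

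Promoter peaks in 1 list only held fewer CpG than shared promoter peaks, though more than the genome tiles. At least 10 CpG were in 31.6% of 3853 DAC-only and 36.2% of 2560 Mock-only promoter windows, against 74.7% and 75.4% of shared ones and 4.37% of the tiles. In the strongest bin of each list the share was 25.2% of 301 DAC-only and 43.9% of 157 Mock-only windows, and 84.1% and 86.1% of shared ones. The letters GGGCGG of SP and KLF factors were in 23.3% of DAC-only and 26.0% of Mock-only promoter windows and in 56.2% and 57.9% of shared ones, and the ETS letters CCGGAAG were in 2.96%, 2.66%, 10.4% and 10.8%. AP-1 letters went the opposite way, with 14.2% of DAC-only and 256 of 2560 Mock-only windows against 8.12% and 8.33% of shared ones. In distal windows the mean number of CpG was 5.38 in DAC-only, 5.00 in Mock-only and 6.36 and 6.44 in shared windows, against 2.93 in the tiles.

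By gene, 1000 of the 4754 genes without a promoter peak in Mock had one after DAC (21.0%), and 740 of the 14394 genes with one in Mock had none after DAC (5.14%). The order of these 2 counts turned with equal numbers of peaks, with 837 gained and 938 lost by p and 835 gained and 1390 lost by fold enrichment. Only the DAC list was cut, which can only lower the gained and raise the lost number, so the direction of this move was fixed in advance. These counts are over the 19148 genes that are named in any of the 8 peak lists and in the expression table. A peak is listed for 1 gene, that of the closest TSS, so a gene next to another TSS can lack a peak that covers its start. Of the 950 gained genes found in the reference annotation, 562 were also gained when any peak within 3000 bp of any annotated transcript start was counted, and 376 had a Mock peak by that rule. Of 701 lost genes 448 were also lost and 233 had a DAC peak. The strongest promoter window of gained genes held a median of 8 CpG, that of lost genes 11, and that of genes with a promoter peak in both lists 24. The TSS was covered in 32.9%, 35.3% and 76.9% of these genes.

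Genes whose mRNA was higher after DAC gained promoter peaks more often than genes within 2-fold, whichever line's expression was used. They also lost promoter peaks more often. The scale was log2(FPKM + 0.1), which understates the change of genes with low FPKM, and genes entered where the mean of Mock and DAC of that line was an FPKM of 0.1 or more. In CL1-5, 824 of 14042 genes (5.87%) were at least 2-fold higher after DAC and 304 (2.16%) at least 2-fold lower, and in PC9 1161 of 14159 (8.20%) and 142 (1.00%). Of the 824 genes higher in CL1-5, 583 (70.8%) already had a promoter peak in Mock. Of the other 241, 83 gained one (34.4%), against 392 of 1988 genes (19.7%) within 2-fold. With PC9 expression 816 of 1161 genes (70.3%) had a peak in Mock, and 118 of the other 345 gained one (34.2%), against 341 of 1798 (19%). The difference was thus 14.7 and 15.2 percentage points. The few genes at least 2-fold lower without a Mock peak gained one in 23 of 92 cases (CL1-5) and 16 of 50 (PC9, 32%), so a gain was also more frequent than in genes within 2-fold among genes that were lower. Of the genes with a Mock peak, 5.83% of those at least 2-fold higher in CL1-5 lost it, against 2.75% within 2-fold and 7.08% at least 2-fold lower. With PC9 expression these shares were 4.90%, 2.08% and 3.26%.

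**Figure D4:**
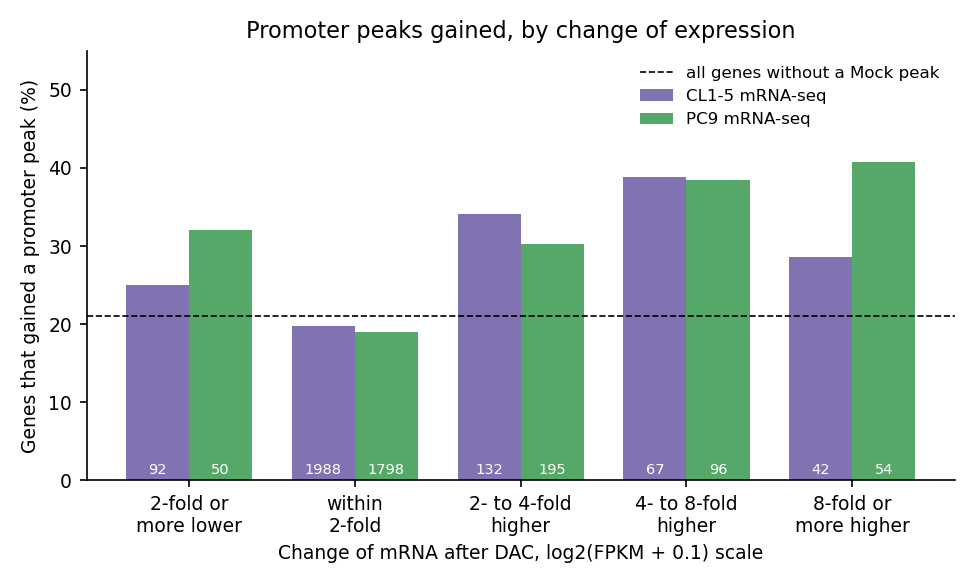
Share of genes without a promoter peak in Mock (%) that had one after DAC in the libraries labelled CL1-5, by the change of their mRNA in CL1-5 (purple) or PC9 (green), with the number of genes in each bar. The dashed line is the share over all genes, 21.0%. Genes within 2-fold sit at 19.7% and 19%, and genes 4- to 8-fold higher at 38.8% and 38.5%.

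Among genes at least 8-fold higher, 12 of 42 (28.6%) gained a promoter peak with CL1-5 expression and 22 of 54 (40.7%) with PC9 expression. With equal numbers of peaks the differences between induced genes and genes within 2-fold were 10.1 (CL1-5) and 13.2 (PC9) points by p and 10.9 and 13.3 by fold enrichment. With peaks of q under 0.01 alone they were 7.51 (23.1% against 15.6%) and 11.9 points (26.8% against 14.8%). By the transcript starts of the reference they were 8.08 and 7.98 points. Read from the peaks, the 498 gained genes that passed the filter in CL1-5 had a median log2 fold change of 0.12 with 16.7% at least 2-fold higher, and the 475 in PC9 a median of 0.22 with 24.8%. Genes with a promoter peak in both lists had medians of 0.01 and 0.01, with 4.83% and 6.64% at least 2-fold higher, and genes with none in either list 8.67% and 13.2%. Most gained genes thus differed by less than 2-fold in mRNA, and the 10th to the 90th percentile ran from -0.62 to 1.71 in CL1-5 and from -0.53 to 2.28 in PC9. Genes that lost a promoter peak had medians of 0.02 in CL1-5 and 0.09 in PC9, also above 0, with 9.71% and 14.7% at least 2-fold higher.

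Cancer-testis genes, which are made in germ cells and silenced by promoter methylation elsewhere, gained promoter peaks at a share near that of all genes, and those with a peak in both lists moved up in rank. Of 36 genes measured, 13 had a promoter peak in Mock. Of the other 23, 6 gained one (26.1%, against 21.0% over all genes), and TUBA3C lost its only one. The gained genes were MAGEA1, MAGEA3, MAGEB1, MAGEB2, MAGEC2 and BRDT. MAGEA3 (chrX:151937732-151938168) had the strongest of these peaks, with a fold enrichment of 4.92 at 72 bp from the TSS, above 82.1% of DAC peaks. MAGEB2 (chrX:30233499-30233718) had 4.52 and MAGEB1 (chrX:30265130-30265369) 3.65, both over the TSS. MAGEC2 (chrX:141292881-141293140) had 3.62 and BRDT, a germ cell bromodomain protein, 3.22 (chr1:92414810-92415082), both over the TSS as well. The stronger of 2 peaks of MAGEA1 (2.81) lay 2902 bp from the TSS.

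The mRNA of MAGEB2 went from an FPKM of 0 (0 reads) to 9.98 (372 reads) in PC9 and from 0.756 (33 reads) to 11 (429 reads) in CL1-5. MAGEC2 was at 1.11 in Mock and 23.8 after DAC in PC9, and at 0 and 0.165 in CL1-5. MAGEB1 was at 0 and 1.32 in PC9 and at 0 and 0.565 in CL1-5. BRDT was at 0.0111 and 0.449 in PC9 and at 0 and 0.105 in CL1-5. These genes were higher after DAC in both lines. MAGEA3 mRNA was present in Mock without a listed peak, with FPKM values of 169 (Mock) and 154 (DAC) in PC9 and 37.5 and 50.7 in CL1-5. Over the list, 21 of 28 genes were at least 2-fold higher in PC9 and 14 of 27 in CL1-5, against 8.20% and 5.87% of all genes. MAGEA3 has a near-identical copy in its family, so its reads are uncertain in both assays.

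The 12 cancer-testis genes with a promoter peak in both lists mostly moved up. The strongest promoter peak of each gene was ranked over the 13654 genes with a promoter peak in both lists, so that percentiles can be compared. The genes named below for their percentiles were chosen after these were seen. The median change, DAC minus Mock, was 12.2 percentiles, higher after DAC in 9 of 12 genes, against 0.157 over all genes. Of all genes, 6939 of 13654 were higher after DAC, and the counts of the lists below can be set beside this. The cancer-testis list began low, at a median Mock percentile of 19.2. How far the changes of the lists go with their starting rank was not tested. DPEP3 went from percentile 7.35 to 44.4 and MAEL, a piRNA pathway protein, from 20.5 to 42, both with their strongest DAC peak at another site, which was DAC only. DAZL, a germ cell RNA-binding protein, went from 74 to 86.7. DAZL mRNA was at 0.0265 (Mock) and 10.6 (DAC) in PC9 and at 0 and 7.25 in CL1-5. MAGEA4, at 6 and 2850 reads in PC9 and FPKM of 58.9 and 73.9 in CL1-5, went from percentile 9.04 to 26.1. MAGEA2 went down from 71.8 to 43.7. The median change of the list was 12.8 and 13.3 with equal numbers of peaks by p and by fold enrichment. It was also above 0 in the libraries labelled PC9 (5.22, 6 genes), A549 (24.3, 5 genes) and H1299 (7.75, 9 genes). Several strongly higher genes had no promoter peak in either list, for example PAGE2, at 0 and 5.69 in PC9 and 0 and 3.99 in CL1-5, and SSX1, at 0.0371 and 1.36 and at 0 and 6.85.

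**Figure D5:**
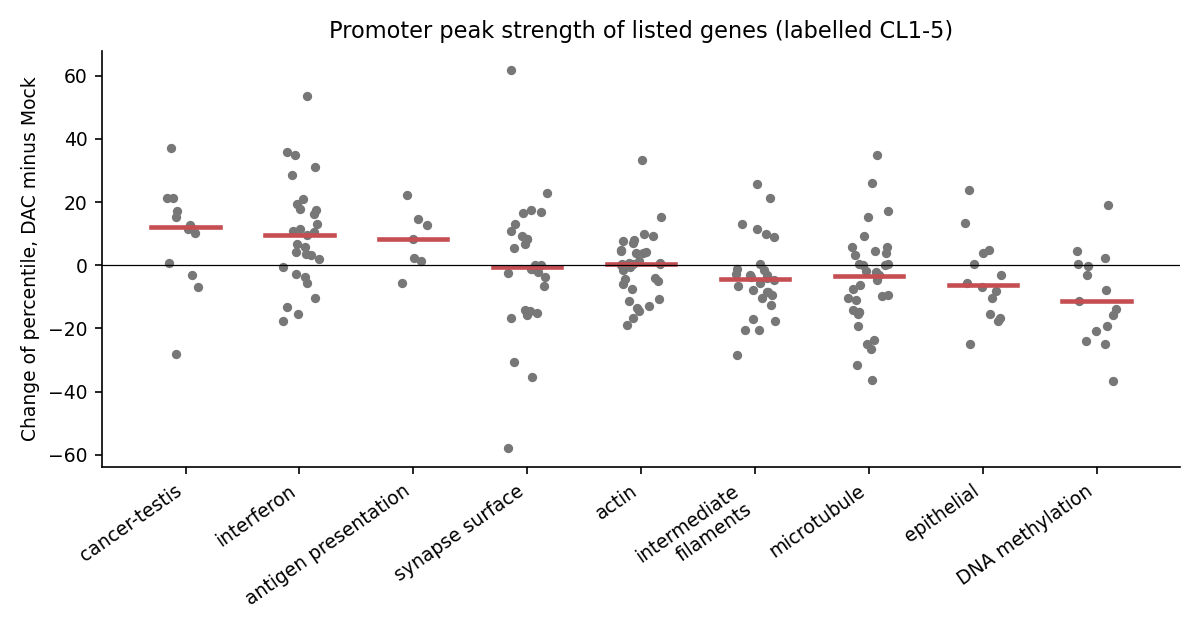
Change of the percentile of a gene's strongest promoter peak, DAC minus Mock, in the libraries labelled CL1-5, for genes with a promoter peak in both lists. Each point is a gene and each red bar the median of its list. The medians run from 12.2 (cancer-testis, 12 genes) to -11.2 (DNA methylation, 15 genes).

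Interferon-stimulated genes also moved up. Their products sense viral RNA or block its translation. Of 37 measured, 30 had a promoter peak in Mock, IFIT1 and GBP1 gained one (2 of 7, 28.6%, against 21.0% over all genes) and IFI44 lost one (against 5.14% of all genes with a Mock peak). With equal numbers of peaks 1 of the 7 gained one by p (14.3%) and 2 by fold enrichment (28.6%), against 17.6% over all genes in both. The peak gained at IFIT1, an interferon-induced RNA-binding protein, had a fold enrichment of 3.14, and that at GBP1, a guanylate-binding protein, 3.02 (chr1:89530571-89531034). Over the 29 genes with a promoter peak in both lists the median change was 9.55 percentiles, higher after DAC in 21. OAS2, an oligoadenylate synthetase whose product activates RNase L, had the largest, from percentile 18.5 to 72, with a fold enrichment of 3.71 in Mock and 5.49 after DAC. OASL went from 19.8 to 55.6, OAS3 from 24.2 to 59, HERC5 (an ISG15 ligase) from 48.7 to 79.8 and DDX58 (the RNA sensor RIG-I) from 27.1 to 55.8. IRF7, a transcription factor of the interferon response, went down from 57 to 39.3. The median was 9.68 with equal numbers of peaks by p, 4.38 in the libraries labelled PC9 (25 genes), -0.910 in A549 (26 genes) and 0.475 in H1299 (21 genes).

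The mRNA of this list differed between the expression columns. In CL1-5, 33 of 37 genes were at least 2-fold higher after DAC and the median log2 fold change was 2.80, whereas in PC9 it was 4 of 31 genes and 0.41. Over all genes the shares at least 2-fold higher were 5.87% in CL1-5 and 8.20% in PC9. OAS2 had 5.34 (Mock) and 76.6 (DAC) in CL1-5 and 0.00768 and 0.179 in PC9. OASL had 403 and 2565 reads in CL1-5 and 52 and 97 in PC9. HERC5 was at 5.53 and 19.2 and at 1.54 and 1.75, in the same order. IFIT1 was at 21.8 and 173 in CL1-5 and at 0.501 and 0.272 in PC9. Of 12 antigen presentation genes, the 7 with a promoter peak in both lists had a median change of 8.29 percentiles, and none of the other 5 gained one. The median was -4.15 in the libraries labelled PC9 (7 genes), -9.34 in A549 (5 genes) and 3.63 in H1299 (6 genes). NLRC5, a regulator of MHC class I, went from 39.6 to 61.8, with its strongest DAC peak at another site.

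Actin regulators did not move in one direction. Of 38 genes 33 had a promoter peak in both lists, with a median change of 0.395 percentiles and 19 higher after DAC, and VIL1 and VAV1 gained one (2 of 5, against 21.0% over all genes). VAV1, a guanine nucleotide exchange factor, had a fold enrichment of 4.65 over its TSS (chr19:6783835-6784145), and VIL1, which encodes villin, 2.99 (chr2:219283886-219284986). VAV1 had 121 and 166 reads in PC9 and 233 and 132 in CL1-5, and the reference annotation has a start of VAV1 with a Mock peak near it. PLS3, an actin bundler, went from percentile 31.4 to 64.7. CORO1A, an actin-binding protein, was at 23.7 and 24, with a peak over its TSS in both lists, while its mRNA was at 0.938 and 2.52 in PC9 and at 2.48 and 5.99 in CL1-5. FES, a tyrosine kinase, had weak promoter peaks in both lists, at percentiles 1.38 and 0.857. DAPK3, a kinase of myosin light chain, went from 63.4 to 50.5. HCLS1, a cortactin-like protein, had no promoter peak in either list, while its mRNA went from an FPKM of 0.0378 (4 reads) to 1.97 (232 reads) in PC9.

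Of 41 intermediate filament genes, 11 had no promoter peak in Mock, and DES (desmin), KRT23 and BFSP2 gained one (27.3%, against 21.0% over all genes). With equal numbers of peaks 1 of the 11 gained one by p and 2 by fold enrichment. KRT2 and KRT3 lost theirs. DES had a fold enrichment of 2.91 over its TSS (chr2:220282976-220283716) and an FPKM of 0.0195 and 0.508 in PC9 and 0.0299 and 0.401 in CL1-5, and a Mock peak lay near one of its reference starts. KRT23 had 3.02 at -57 bp from the TSS, that is upstream (chr17:39093893-39094599) and went from 0 reads to 43 in PC9, with 0 reads in both CL1-5 libraries. The 28 genes with a peak in both lists mostly moved down, with a median change of -4.32 percentiles and 7 higher after DAC. KRT6A went from 47.8 to 19.4 and KRT18, a keratin of simple epithelia, from 48.4 to 30.6, both with their strongest peak at another site after DAC. SYNM, an intermediate filament protein of muscle, went from 43 to 68.8. GFAP had no listed promoter peak. EVPL, a plakin that links keratins to desmosomes, went from 39.6 to 35, and its paralog EVPLL from 39.7 to 19.2.

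All 35 microtubule and mitosis genes with a promoter peak in Mock kept one, with a median change of -3.40 percentiles, higher after DAC in 13. PLK1, a mitotic kinase, moved most upward, from 33 to 67.9, and BUB1, a spindle checkpoint kinase, most downward, from 51.3 to 15. TUBE1 went from 72.5 to 78.4, TUBG1 from 89.3 to 79.4 and DCTN1 from 45.3 to 29.7. The change was -3.35 and -4.21 with equal numbers of peaks. The mRNA of the list had a median log2 fold change of -0.31 in PC9 and 0.12 in CL1-5.

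The DNA methylation genes had the lowest median change, -11.2 percentiles over 15 genes, with 4 higher after DAC. They began at a median Mock percentile of 56.5. HELLS, a chromatin remodeller needed for DNA methylation, went from 63.9 to 27.1 and TET3, which oxidizes methylcytosine, from 41.2 to 17.3. DNMT1, the maintenance methyltransferase, went from 58 to 44.1, whereas DNMT3B, a de novo methyltransferase, went from 53.5 to 72.7. DNMT3B mRNA was at an FPKM of 3.02 and 5.96 in PC9 and 5.47 and 9.47 in CL1-5. In A549 the list had a median of 4.92, in H1299 0.925 and in the libraries labelled PC9 0.815. The difference between these pairs of libraries was not tested.

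Of the other lists, 28 synapse surface genes had a median change of -0.659 percentiles and none of 4 gained a promoter peak. ICAM1, a ligand of lymphocyte integrins, went from 26.4 to 37.2, with 626 and 2650 reads in PC9 and 321 and 1584 in CL1-5. ICOSLG went from 62.5 to 4.70, but its strongest listed peak lay at -2938 bp from the TSS in Mock and over the TSS after DAC, so these are different sites. Of 49 protocadherin genes, which lie in clusters of near-identical copies, 6 of 33 gained a promoter peak (18.2%) and 9 of 16 lost theirs, against 21.0% gained and 5.14% lost over all genes. Of the genes that lung cancers often methylate, 2 of 9 gained a promoter peak (WIF1 and ZIC4, 22.2%) and 2 of 26 lost theirs (CDH13 and SHOX2), near the same shares over all genes. Their median change was 1.27. The medians were -6.19 for 14 epithelial, -3.16 for 12 mesenchymal and 1.88 for 8 lung lineage markers. Among the leukocyte markers SPI1 lost its promoter peak, with an FPKM under 1 in all 4 libraries of CL1-5 and PC9. Of the 4 fibroblast markers LUM lost a promoter peak, DCN had none, and PDGFRB gained one with a fold enrichment of 3.49 while its mRNA stayed under an FPKM of 1. The 14 genes that the study singled out on these samples, and which are no independent evidence, had a median change of -4.58 over 11 genes.

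The genes with the largest mRNA change among those that gained a promoter peak were partly shared by both expression columns. In PC9 they were MAGEB2, H19, SPANXC, TMEM88, SUN3, MAGEA1, MAGEC2, ECSCR, MIR320E and RPL10L, and in CL1-5 TUBA3E, TDRD12, SLC15A3, TEX11, SNORD37, FAM9C, MAGEB2, MIR1286, CES1 and UBA7. H19 had a weak peak, with a fold enrichment of 2.52 at -11 bp from the TSS (chr11:2019076-2020086), above 4.90% of DAC peaks. Its FPKM was 0.630 in Mock (37 reads) and 71.8 after DAC (4692 reads) in PC9 and 23.5 and 62.6 in CL1-5. At H19, SUN3, TMEM88, TDRD12, SLC15A3, MIR1286, CES1 and UBA7 a Mock peak lay within 3000 bp of a transcript start of the reference, so there the gain rests on how peaks were listed. SPANXC, a sperm protein with near-identical copies, had 4.55 at -13 bp from the TSS (chrX:140336659-140336943) and an FPKM of 0.133 and 13.1 in PC9. RPL10L, a testis ribosomal protein, had 4.82 over its TSS (chr14:47120740-47121223) and 0 and 27 reads in PC9.

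TUBA3E had a fold enrichment of 3.32 over its TSS (chr2:130955913-130956225) and an FPKM of 0.0239 and 13.5 in CL1-5 and 0.250 and 1.46 in PC9. TEX11 had 3.21 over its TSS (chrX:70127893-70128610) and an FPKM of 0 and 2.14 in CL1-5 and 0.0143 and 0.756 in PC9. UBA7, the activating enzyme of ISG15, had 3.29 over its TSS (chr3:49850615-49851608), with 15 and 244 reads in CL1-5 and 78 and 254 in PC9. CES1, a carboxylesterase, had 3.10 at 22 bp from the TSS (chr16:55865866-55867053), with 1.63 and 18.5 in CL1-5 and 0.835 and 0.868 in PC9. Most of these peaks were weak in their own list, such as that of CES1 at percentile 30.8 of all DAC peaks, and MIR320E (2 reads after DAC in PC9), MIR1286 and SNORD37 (2 reads each after DAC in CL1-5) rest on few reads.

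None of the 10 genes with the strongest DAC-only promoter peaks was among the gained genes just named. Those lists hold 10 of the 1000 gained genes each, and genes with another promoter peak in Mock could not be among them. Nothing is therefore read from the lack of overlap. The highest of the DAC-only promoter peaks was at ARHGAP9, a GTPase-activating protein, with a fold enrichment of 9.83 at -1125 bp from the TSS (chr12:57869881-57870356). Its mRNA was at an FPKM of 0.0188 (2 reads) in Mock and 0.0337 (4 reads) after DAC in PC9. UTP4, a ribosome biogenesis factor, had 8.90 at 12 bp from the TSS (chr16:69177084-69177381), with an FPKM of 16.3 and 14.4 in PC9 and 21.7 and 31.1 in CL1-5. DUSP8, a MAP kinase phosphatase, had 8.12 at -109 bp (chr11:1593259-1593862), with 0.167 and 0.721 in PC9 and 0.128 and 0.250 in CL1-5. By the transcript starts of the reference all 3 genes had a Mock peak within 3000 bp. EIF4G3, FHAD1, TFIP11 and PATL1 had another promoter peak in Mock, and UBE2Q2L, MIR4503 and SNORA36C complete the list of 10, down to a fold enrichment of 6.60.

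The 5 strongest Mock-only promoter peaks lay at genes with few reads or no listed expression, apart from NKX2-2 in CL1-5. SALL3 had a fold enrichment of 14 at -331 bp from the TSS (chr18:76739505-76739944) and had another promoter peak after DAC at a different site, with 3.02. SNAR-A1 had 13.3, NKX2-2 11.8 at -1222 bp (chr20:21495886-21496448), OR2A14 11 and SCN2A, a sodium channel gene, 10.8. SALL3 was at 0 reads in Mock in PC9 and at 1 read after DAC, and NKX2-2 was at an FPKM of 0.917 and 1.08 in CL1-5 and at 0 reads in both PC9 libraries.

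Several of the genes with most peaks in 1 list only lay on chromosome arms 5p and 7p. DAC-only peaks were counted by the gene of the closest TSS, and CTNND2 had 49, KLHL29 39, LINC02111 37, MYT1L 33, COBL 32, DNAH5 31, and CAMTA1, FAM135B, KCNK9 and MAD1L1 29 each. Of these, CTNND2, LINC02111 and DNAH5 lie on 5p and COBL and MAD1L1 on 7p. KCNK9 and IRX1 had 41 Mock-only peaks each, TENM4 39, CTNND2 38 and DNAH5 34, so CTNND2, DNAH5 and KCNK9 were high in both classes. MAD1L1, which encodes a spindle checkpoint protein, had 29 DAC-only and 11 Mock-only peaks. CTNND2, which encodes a delta-catenin of neurons, had 0 reads in both PC9 libraries, and KCNK9, a potassium channel gene, stayed under an FPKM of 0.2 in all 4 libraries.

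Arm 5p had 64.2 Mock peaks per Mb of sequence, against 24.3 on 5q and a median of 29.5 over 41 arms. The gene-rich arms 19p (72.4) and 19q (71.8) were denser, and 22q was close (63.6). In the Mock libraries of A549, H1299 and the label PC9 arm 5p had 13.5, 9.26 and 28.5, whereas 19p had 52.0, 44.9 and 62.3. On 7p the density was 45.8, against 29.5 on 7q. After DAC 5p had 65.5 peaks per Mb, 1.02 times the Mock number, the lowest ratio of all arms (highest 1.23). Its Mock-only share was 40.2%, against a median of 28.9% over arms, and its DAC-only share 41.8% against 38.6%. Without 5p and 7p there were 35272 DAC-only and 23306 Mock-only peaks.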

How the data were processed

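Open chromatin was measured by Omni-ATAC-seq and mRNA by mRNA-seq, with 1 library per treatment in each line. Per the labels and the study's methods, the authors aligned trimmed ATAC reads to hg19 with BWA 0.7.17-r1188, removed duplicates (Picard 2.21.4) and unpaired or mitochondrial reads (SAMtools 1.9), called broad peaks per library with MACS2 2.2.5 and listed each for the gene of the closest TSS with ChIPseeker 1.20.0. The deposited peak lists give a fold enrichment over local background (a ratio within 1 library), −log10 p and −log10 q, and a score that MACS2 derives from q. The number of ATAC reads per library is not given in the sources used here. The authors deposited expression as FPKM per gene. The processing notes name TopHat2 2.1.1, while the methods describe another quantification. Whole reads were recovered from the FPKM values to a tolerance of 0.01 of a read, and totalled 25220587 (CL1-5 Mock), 23480895 (CL1-5 DAC), 22717769 (PC9 Mock) and 22941662 (PC9 DAC). The authors also deposited comparisons between treatments, made with DESeq2 1.24.0, with a mean normalized signal, fold changes and p-values; these were not used.

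Peaks were shared when they overlapped by at least 1 bp. A promoter peak lay within 3000 bp of the TSS as listed. A gene was gained or lost when only the DAC or only the Mock list held a promoter peak for it. The fold of mRNA was taken on log2(FPKM + 0.1) for genes with a mean of at least 0.1, and called at 2-fold. Lists were repeated with the DAC list reduced to the number of Mock peaks. Motifs and CpG were counted in windows of 300 bp from GRCh37 at peak midpoints, and in tiles every 20000 bp. All peak positions on the main chromosomes lie within the GRCh37 lengths. The gene lists were cancer-testis, interferon, antigen presentation, synapse surface, actin, intermediate filament, microtubule, protocadherin, methylated suppressor and DNA methylation genes, the epithelial, mesenchymal, lung lineage, leukocyte and fibroblast markers, and genes that the study singled out. The genes named are list members that gained or lost a promoter peak or had a large mRNA change, the 10 genes with most DAC-only and 5 with most Mock-only peaks, the 10 and 5 strongest such promoter peaks, and the 10 gained genes of largest mRNA change in each line. List members named for their percentiles and the distal peaks were chosen after their values were seen. Members and lists were chosen with earlier results of these data known. With 1 library per treatment no test was made. Overlap, motif and read recovery steps were tested on simulated data with known answers. Python 3.11.15, numpy 2.4.6, scipy 1.17.1, pandas 2.3.3 and matplotlib 3.10.9 were used. Peaks and reads at near-identical copies (MAGE, SPANX, TUBA3 and protocadherin genes) are uncertain. A few genes and 1 sequence are not reported here.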

Additional observations from a re-analysis of the deposited data

Results flagged for a closer look

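Mock and DAC differed in opposite directions between lines in 2 measures of whole lists. The median peak width, DAC minus Mock, was 22.0 bp in the libraries labelled CL1-5 and -9.00 bp in A549. A549 alone had narrower peaks after DAC, since the median went from 501 to 523 bp in the libraries labelled PC9 and from 507 to 512 bp in H1299. The median −log10 p of narrow peaks with a fold enrichment of 3 to 3.2 differed by -0.0758 in the libraries labelled CL1-5, against 0.150 in A549, 0.399 in H1299 and 0.169 in the libraries labelled PC9, so that the DAC library labelled CL1-5 alone had the lower value. Each line had 1 library per treatment, so these differences were not tested.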

How the results depend on the processing

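Counts, widths, fold enrichments and shares cannot change sign, so only the label check could, and it did not. With equal numbers of peaks lost genes outnumbered gained ones (938 against 837 by p, 1390 against 835 by fold enrichment). Only the DAC list was cut, so the direction of this move was fixed in advance. The order of the distances of DAC-only and Mock-only peaks to a TSS turned by fold enrichment, where the Mock list kept its weakest peaks. Of the values, 33 stayed within their counting interval (or, for counts, within 1.5 times), and 28 moved. No paired analysis was possible because there was 1 library per group and the labels carry no replicate numbers. With peaks of q under 0.01 alone there were 21995 DAC-only and 11970 Mock-only peaks. DAC-only peaks then had a median width of 384 bp and a fold enrichment of 3.54, and promoters held 10.9% of DAC-only and 15.1% of Mock-only peaks. The share of induced genes that gained a promoter peak was 23.1% (CL1-5) and 26.8% (PC9), and the label check (the share of PC9-only genes minus that of CL1-5-only genes with promoter peaks in Mock, 24.9 points as reported) was 35.6 points. When at least 50% of a peak had to be covered, DAC-only peaks had a median width of 418 bp and a fold enrichment of 3.15, and promoter shares were 11.5% and 11.4%. With equal peak numbers by p, the fold enrichment was 3.27 and the induced share in CL1-5 27.4%. With equal numbers by fold enrichment the width was 360 bp, the fold enrichment 3.23, promoter shares 8.46% (DAC only) and 13.8% (Mock only), 1390 genes were lost, and induced shares were 27.0% and 28.7%. With a promoter window of 1000 bp the promoter shares were 5.08% and 5.36%, the induced share was 27.5% in both CL1-5 and PC9, and the label check 31.8 points. With limits of 5 and 0.05 FPKM the label check was 35.5 points. The cause of these moves was not tested. Transcript starts of the reference, bins of strength by rank and lists without 5p and 7p were chosen after seeing the data. Unknown ATAC depth limits the absence of a peak: a site in 1 list only may lie just under the threshold of the other.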
